A study of Drosophila melanogaster with 4 samples.

Results

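The genes described here are transcription regulators of the early mesoderm of *Drosophila melanogaster* and of its subdivision: *twi*, *sna*, *zfh1*, *tin*, *bap*, *bin*, *lmd*, *Him*, *eya* and *Poxm*. They were chosen by name, and 9 of the 10 had a probe set named for them among the 10844 genes named on the array, with 1 probe set each. *tin* had none under that name and was not analysed here. The tested embryos were *how* mutants, which lacked both the maternal and the zygotic product of *how* (*held out wings*, the gene for a STAR-family RNA-binding protein). They came from mothers with *how* germline clones, and homozygotes were picked from their siblings by the fluorescence of a GFP balancer. The comparison embryos were wild type, from the yw stock, for which the labels describe no germline clone. Both groups came from 2 h egg collections aged a further 3 h, and are labelled 3 to 5 h old, at 25 °C. There were 2 Affymetrix arrays for each group, and every array received RNA combined from 5 preparations of about 100 whole embryos. The *how* allele is not named in the sources used here. No probe set was named *how*, so its own level was not analysed.

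Mesoderm forms from the ventral cells of the blastoderm, where Dorsal switches on *twi* and *sna*. Twist then activates mesodermal genes such as *tin*, and Snail keeps ectodermal genes off in those cells. After the cells have invaginated and spread under the ectoderm, *tin*, *bap* and *bin* set up the dorsal and visceral parts, while *lmd*, *Poxm*, *eya* and *Him* act in cells of the muscle and other mesodermal lineages. HOW itself is made in the mesoderm and its derivatives and binds RNA, which raises the question whether these regulators differ in embryos without it.

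In *how* mutant embryos 1 of the 9 regulators was higher and the other 8 did not pass the test. Of all probe sets tested, 1.75% passed as higher. The one that rose was *lmd* (*lame duck*), a Gli-type zinc finger gene needed to make fusion-competent myoblasts, the cells that fuse with founder cells to build muscle fibres. Its signal was about 2-fold that of wild type. It passed just under the threshold of 0.05 (limma adjusted p = 0.0497), and the call was lost under several of the alternatives given below. The log2 changes of the other 8 lay between -0.35 and 0.11, and the genes that specify the mesoderm, *twi* and *sna*, were among them.

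All values are MAS5 signals, the array software's brightness of a probe set on a linear scale, with every array scaled to the same trimmed mean. Signals of different probe sets cannot be set against each other, so each gene is compared with itself across arrays. A log2 change is the *how* mutant mean of log2 signal minus the wild-type mean, with limma's SE and 95% interval, and a gene passed when its Benjamini-Hochberg adjusted p over all 8380 probe sets tested was under 0.05. Of those 8380, 3.04% passed and 1.75% passed with a higher signal in the mutant. The lowest signal of any of the 9 regulators on any array was 114, against 39.5 for the level used to leave out dim probe sets. RNA came from whole embryos, so a difference in the number of mesodermal cells and one in the RNA per cell cannot be told apart. With 2 arrays against 2, the smallest p of a two-sided exact permutation test is 0.333.

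**Figure D1:**
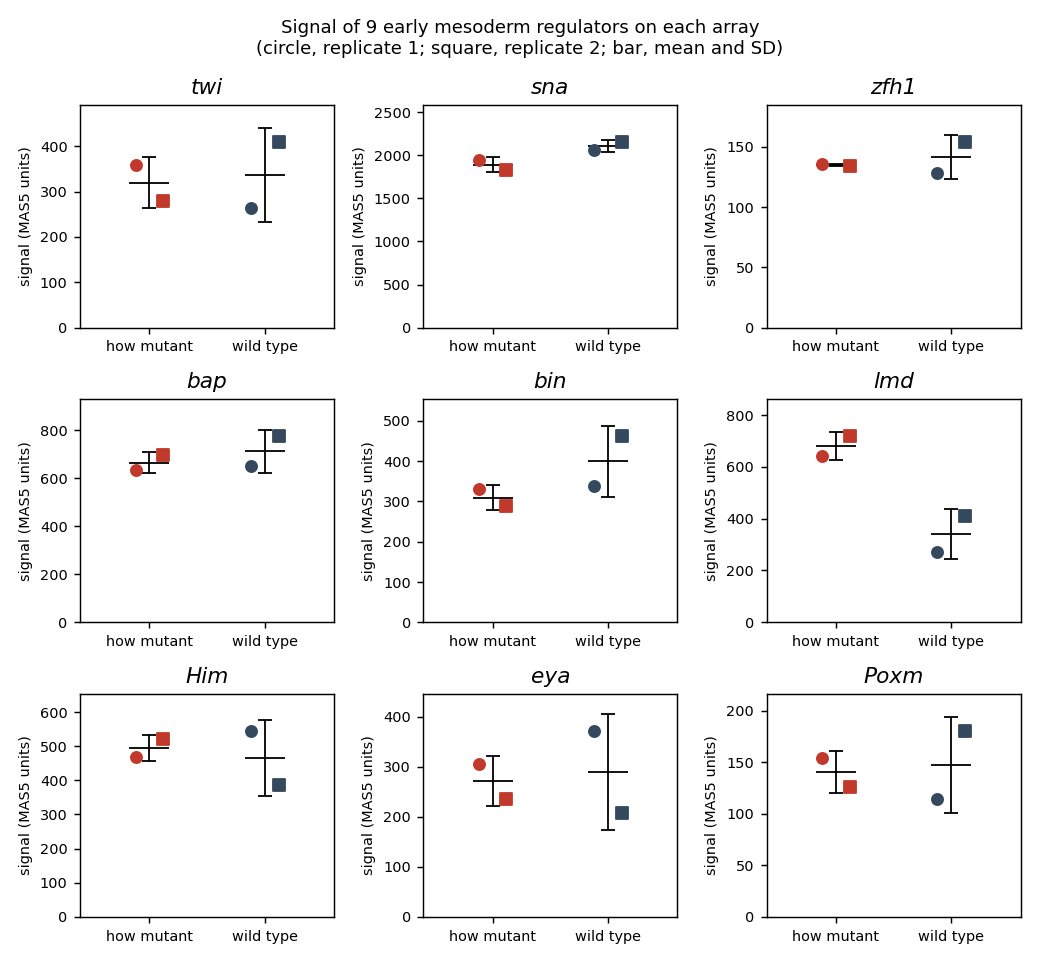
MAS5 signal (vertical axis, from 0, different for each gene) of the 9 regulators on the *how* mutant arrays (red, left) and wild-type arrays (dark, right); points are single arrays and bars are the mean and SD of 2 arrays. Only for *lmd* do both mutant points, 642 and 718, stand well clear of both wild-type points, 273 and 409.8.

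The first genes to act are *twi*, *sna* and *zfh1*. *twi* encodes a basic helix-loop-helix activator at the top of the mesodermal programme. Its signal was 359 and 279.7 on the *how* mutant arrays, against 263 and 409 on the wild-type arrays, so both mutant arrays lay between the wild-type arrays. The log2 change was -0.05 ± 0.25 (SE, n = 2 arrays per group; limma adjusted p = 0.954), and its 95% interval, from -0.62 to 0.52, corresponds to 0.650-fold to 1.44-fold. Changes larger than these lie outside the interval, and smaller ones could not be resolved with 4 arrays.

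*sna* encodes a zinc finger repressor. It had signals of 1948 and 1829 on the *how* mutant arrays, against 2059 and 2154 on the wild-type arrays. The mutant arrays were the 2 lower ones, but the nearest arrays of the groups differed only 1.06-fold. Its log2 change was -0.16 ± 0.13 (SE, n = 2; limma adjusted p = 0.633), and it had the narrowest interval of the 9 regulators, from -0.47 to 0.15, or 0.723-fold to 1.11-fold. *zfh1*, which encodes a zinc finger and homeodomain protein of early mesoderm, later important in gonadal mesoderm and haemocytes, had signals of 136 and 134 on the *how* mutant arrays, against 129 and 154 on the wild-type arrays. The mutant arrays again lay between the wild-type arrays, and the log2 change was -0.06 (interval -0.61 to 0.48; limma adjusted p = 0.941).

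The next step is the division of the mesoderm. *bap* (*bagpipe*) encodes an NK-type homeodomain protein of the trunk visceral mesoderm, the source of gut muscle, and lies next to *tin*, its activator, on chromosome arm 3R. *bap* gave 635 and 696 on the *how* mutant arrays, against 649 and 774 on the wild-type arrays. The groups overlapped, and the log2 change was -0.09 (interval -0.45 to 0.27; limma adjusted p = 0.835). *bin* (*biniou*) encodes the FoxF forkhead factor that acts after *bap* in the same tissue. It gave 331 and 288 on the *how* mutant arrays, against 338 and 462 on the wild-type arrays.

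The log2 change of *bin*, -0.35 ± 0.20 (SE, n = 2), did not pass (limma adjusted p = 0.442), and was -0.58 without wild-type array 1 and -0.13 without wild-type array 2. Both mutant arrays were lower than both wild-type arrays, but the nearest pair, mutant array 1 and wild-type array 1, differed by only 1.02-fold. The interval of -0.82 to 0.11 includes falls to 0.566-fold of wild type.

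The remaining genes act in muscle and other later lineages. *lmd* had signals of 642 and 718 on the *how* mutant arrays, against 273 and 409.8 on the wild-type arrays. Both mutant arrays lay above both wild-type arrays, and the nearest pair differed 1.57-fold. The mean was 679.5 ± 53.7 in the *how* mutant and 341 ± 96.7 in wild type (SD, n = 2). The log2 change was 1.02 ± 0.21 (SE; limma adjusted p = 0.0497), or 2.03-fold with an interval of 1.44-fold to 2.85-fold.

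*lmd* thus passed just under the threshold, as number 246 by p of the 255 probe sets that passed. Of all probe sets tested, 5.24% had a larger absolute change and 2.92% a smaller p. The call was kept in 6 of 13 alternatives at the same threshold and lost under quantile normalization (limma adjusted p = 0.0611), a robust fit (0.0516), a fit without the mean-variance trend (0.187) and no filter on dim probe sets (0.254). It was also lost without mutant array 1 (0.169), mutant array 2 (0.250) or wild-type array 1 (0.115), although the log2 change stayed between 0.73 and 1.31 when any 1 array was left out.

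**Figure D2:**
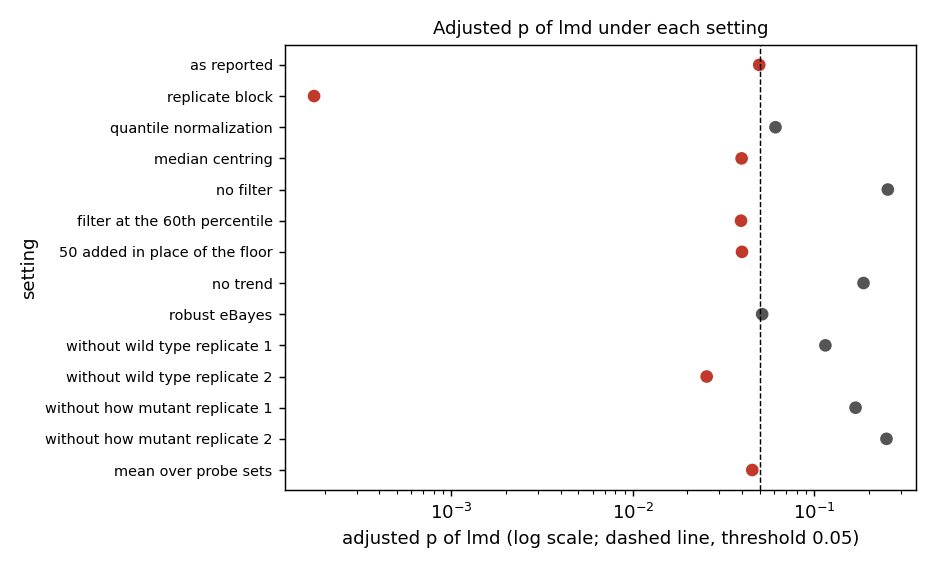
Adjusted p of *lmd* (horizontal axis, log scale) from limma in the reported fit and under 13 alternatives to it; red points pass the threshold of 0.05, drawn as a dashed line. The reported value, 0.0497, lies at the line, and the alternatives run from 0.000175 with the replicate number as a block to 0.254 with no filter.

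*Him* (*Holes in muscle*) encodes an inhibitor of the muscle activator Mef2 that is made in muscle progenitors. Its signals were 468 and 522 on the *how* mutant arrays, against 544 and 387 on the wild-type arrays. The mutant arrays fell between the wild-type arrays, and the log2 change was 0.11 (interval -0.35 to 0.56; limma adjusted p = 0.852). *eya* (*eyes absent*) encodes a transcriptional coactivator and phosphatase that works with Six-family homeodomain proteins in the eye, the somatic gonad and mesoderm. *eya* had 306 and 236 on the *how* mutant arrays, against 371 and 207 on the wild-type arrays.

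The wild-type arrays of *eya* differed 1.79-fold from each other, the widest replicate gap among the 9 regulators, and enclosed both mutant arrays. Its log2 change was -0.04 (interval -0.71 to 0.63; limma adjusted p = 0.962). *Poxm* (*Pox meso*), a paired-domain gene of somatic mesoderm, had 155 and 126 on the *how* mutant arrays, against 114 and 180.5 on the wild-type arrays. For *Poxm* too the mutant arrays lay inside the wild-type range, with a log2 change of -0.04 (interval -0.71 to 0.63; limma adjusted p = 0.966). For *eya* and *Poxm* the data leave room for changes of up to 1.54-fold and 1.55-fold above wild type and down to 0.609-fold and 0.613-fold of it.

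**Figure D3:**
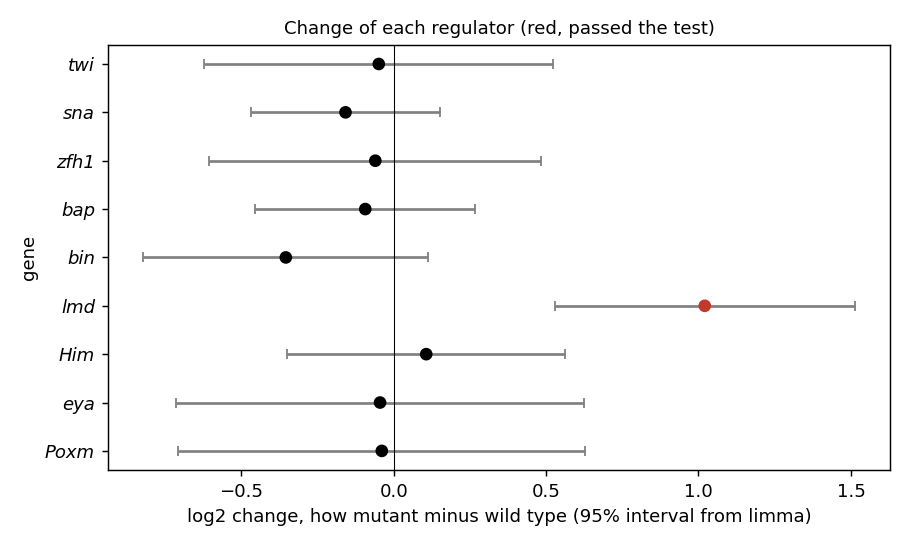
Log2 change of each regulator (horizontal axis, *how* mutant minus wild type) with limma's 95% interval; the red point passed the test. The interval of *lmd*, 0.53 to 1.51, is the only one of the 9 that does not include 0.

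Counted together, 3 of the 9 regulators had all arrays of one group above those of the other (*lmd* above, *sna* and *bin* below), against 46.8% of all probe sets tested. The median log2 change of the 9 was -0.05, against 0.00297 for all probe sets tested, and the median absolute change was 0.09, against 0.23. Of the 9 regulators 7 lay below 0, and 49.7% of all probe sets tested did.

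The ratio of mutant to wild type was also taken separately for the arrays numbered 1 and those numbered 2, although the labels name no batch shared by a number. *lmd* was 2.35-fold in the first and 1.75-fold in the second. For 5 regulators (*twi*, *zfh1*, *Him*, *eya* and *Poxm*) the ratio changed sides of 1 between the numbers, against 35.6% of all probe sets tested. *twi* was 1.37-fold in the first and 0.683-fold in the second, and *Poxm* was 1.36-fold and 0.699-fold. *Him* and *eya* ran the other way, at 0.859-fold and 0.824-fold in the first and 1.35-fold and 1.14-fold in the second. *sna*, *bap* and *bin* lay below 1 in both, *bin* at 0.981-fold and 0.624-fold.

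**Figure D4:**
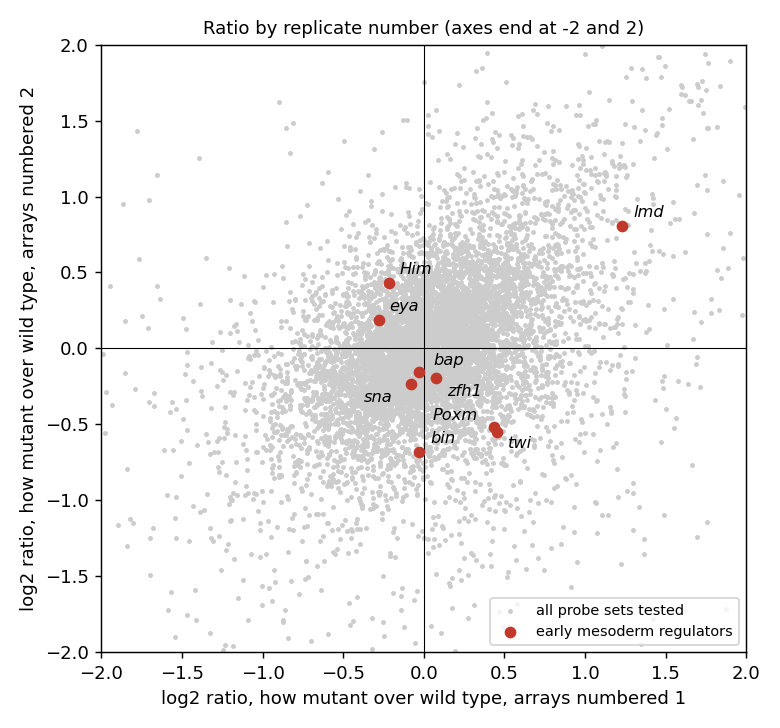
Log2 ratio of *how* mutant over wild type on the arrays numbered 1 (horizontal axis) and numbered 2 (vertical axis) for the 9 regulators (red) and all probe sets tested (grey). *lmd* stands alone in the upper right among the regulators, at 1.23 and 0.81, while *twi* and *Poxm* lie at the lower right and *Him* and *eya* at the upper left.

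The spread between arrays of 1 group was larger in wild type. In a comparison added after the values were seen, the *how* mutant arrays differed by a median of 1.12-fold over the 9 regulators and the wild-type arrays by 1.41-fold, while over all probe sets tested the medians were 1.16-fold and 1.18-fold. The gap was wider in wild type for 8 of the 9 regulators, *sna* being the exception, and for 55.5% of all probe sets tested. Wild-type array 2 was the brighter of the pair for 7 regulators, against 54.1% of all probe sets tested, and *Him* and *eya* were brighter on wild-type array 1. For 5 of the 9 regulators both mutant arrays lay between the wild-type arrays, against 14.8% of all probe sets tested. These are the same 5 whose ratio changed sides of 1 between the numbers. That change follows from this order under either pairing, so the counts are not separate observations.

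The genes around the regulators were counted from lists chosen by function. Of 13 listed genes that pattern the dorsoventral axis upstream of *twi* and *sna*, 4 were too dim to test (*dl*, *spz*, *gd* and *ndl*). None of the 9 tested passed in limma, and 0 had an unadjusted p under 0.05. The list's median log2 change was 0.01, and the smallest p values belonged to *da*, which encodes the helix-loop-helix partner of Twist (-0.27), and *cact*, which encodes the inhibitor that holds Dorsal in the cytoplasm (-0.18). Of 12 listed mesoderm genes downstream of *twi*, 5 had no named probe set (*Mef2*, *stumps*, *wntD*, *Mes4* and *Ilp4*). Among the 7 tested, 1 passed as higher and 0 as lower, with a median of -0.09. An unadjusted p under 0.05 in limma was found for 2. *Mdr49*, 1 of these 2, was singled out after its values were seen. It had 34.0 and 23.3 on the *how* mutant arrays, against 65.2 and 73.8 on the wild-type arrays, without overlap. Its log2 change of -1.30 did not pass (limma adjusted p = 0.207), and its mutant signals lay under 39.5. The gene that rose was *fog*, whose secreted product drives the cell shape change of the invaginating mesoderm, with signals of 308 and 314 on the *how* mutant arrays, against 177 and 135 on the wild-type arrays. Its log2 change was 1.01 ± 0.21 (SE, n = 2; limma adjusted p = 0.0497), and this call was lost when any 1 of the 4 arrays was left out.

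Of 8 listed genes that Snail represses in the mesoderm, 5 had no named probe set (*sim*, *rho*, *sog*, *brk* and *vnd*). Among the 3 tested, 0 passed and 0 had an unadjusted p under 0.05 in limma. The smallest p values there were those of the FGF ligand gene *pyr* (0.36) and the proneural gene *l(1)sc* (-0.10). Of 20 other mesodermal transcription regulators tested, 0 passed, 4 had an unadjusted p under 0.05 in limma, and the median log2 change was 0.09. *HLH54F*, which encodes the helix-loop-helix factor of the caudal visceral mesoderm, had 174 and 176 on the *how* mutant arrays, against 99.1 and 97.5 on the wild-type arrays, without overlap (0.83; limma adjusted p = 0.123).

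*Six4* encodes a Six-family partner of Eya in mesoderm. It had 182 and 196 on the *how* mutant arrays, against 331 and 292 on the wild-type arrays, also without overlap, and its log2 change of -0.72 did not pass (limma adjusted p = 0.103). Among 9 partners of the regulators, *Six4* included, 0 passed, 2 had an unadjusted p under 0.05 in limma and the median was 0.05. The other of these 2 was *pnr*, a GATA factor gene that acts with *tin* in the heart (0.40). Among 20 relatives of the regulators by protein family 0 passed, with a median of 0.04 and an unadjusted p under 0.05 in limma for 3, *HLH54F*, *zfh2* (0.62) and *fkh* (0.42). The other tested probe set of *zfh2* gave -0.21 with overlap, and the mean over its probe sets gave 0.20.

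On a list of genes that act in the visceral mesoderm or signal to it, 0 of 5 tested passed in limma. Their median log2 change was -0.13, and 1 had an unadjusted p under 0.05. That gene was *jeb*, which encodes the ligand of the Alk receptor (-0.83; limma adjusted p = 0.211), and *mib2*, needed for muscle integrity, was next by p (0.25). The value of *jeb* was -1.24 without mutant array 1, -0.43 without mutant array 2 and -0.12 as the mean over its probe sets, the other of which was too dim to test. Of 7 tested genes of fusion-competent myoblasts and myoblast fusion, 0 passed, 1 had an unadjusted p under 0.05 in limma, 6 lay above 0 and the median was 0.44. *blow*, which encodes a fusion protein of these myoblasts, had 203 and 162 on the *how* mutant arrays, against 99.2 and 73.3 on the wild-type arrays (1.09; limma adjusted p = 0.0943). *Vrp1*, an actin regulator gene of fusion, was next by p (0.59). *sns*, the adhesion receptor gene whose expression is known to need *lmd*, was singled out after its values were seen. It had 233 and 144 on the *how* mutant arrays, against 213 and 188 on the wild-type arrays, with overlap and a log2 change of -0.13.

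**Figure D5:**
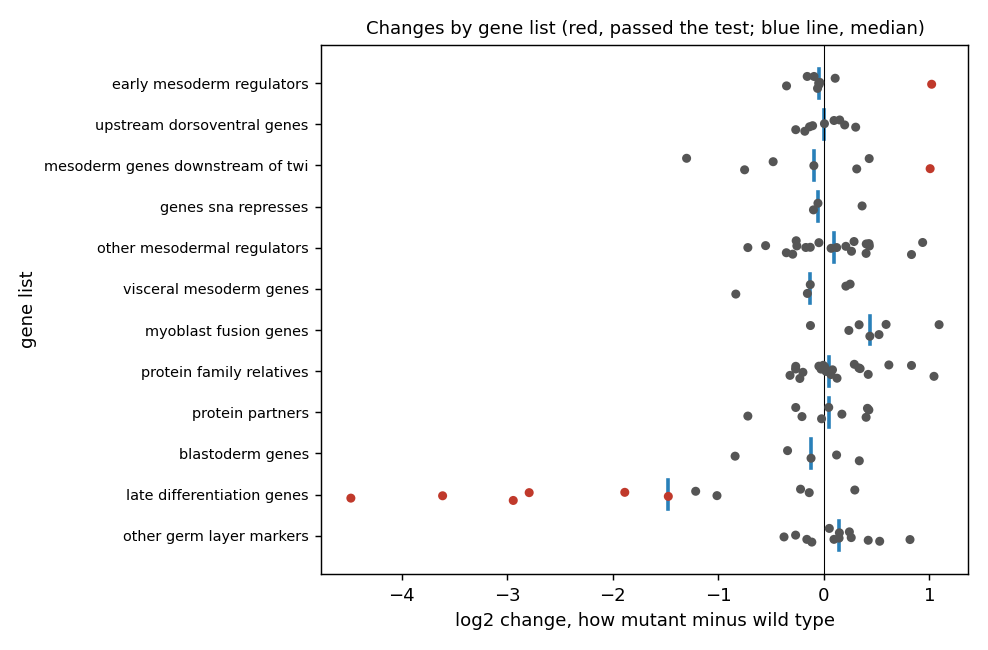
Log2 change (horizontal axis, *how* mutant minus wild type) of every tested gene in each list, by its brightest probe set; red points passed the test and blue lines mark medians. *lmd* and *fog* are the red points near 1, and the 6 red points below 0 are all late differentiation genes, whose median is -1.47.

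Genes of late differentiation, of the blastoderm and of other germ layers were read beside these results. Of 11 tested late differentiation genes 6 passed as lower, against 108 of all 8380 probe sets tested. The list was chosen with earlier results of these data known, so this count is no independent finding. Among the 6 were the myosin light chain genes *Mlc1* (-4.48) and *Mlc2* (-3.61). The troponin T gene *up* (-2.94) and the chitin organiser gene *obst-A* (-2.79) were others. The count takes the brightest probe set of each gene, which matters for *serp* and *TwdlM*, named after their values were seen. *serp* did not pass by its brightest (-1.21), but its other tested probe set fell (-3.41; limma adjusted p = 0.00815). *TwdlM* gave -1.89 by its brightest and -5.47 by its other tested probe set. In these other probe sets the mutant signals lay under 39.5. The summed signal of the 13 genes of that list with a probe set was 1482 to 1672 on the *how* mutant arrays, against 4144 to 4464 on the wild-type arrays, and 2 of the 13 were too dim to test. Such sums, here and below, weigh the brightest probe sets most and are compared only with the same sum on other arrays. Leaving out wild-type array 1 or 2 ended the calls of *Mlc1* (limma adjusted p = 0.0675 and 0.0782) and *up* (0.0524 and 0.0709), and the mean over its probe sets ended that of *obst-A* (-1.52; 0.0543). The mutant signals of *Mlc1* and *up* lay under 39.5, so the size of these falls is uncertain, and with 50 added to every signal they were -2.13 and -1.68. Of 5 tested blastoderm genes 0 passed in limma and 1 had an unadjusted p under 0.05, with summed signals over 9 genes of 3729 to 4857 on the *how* mutant arrays, against 3891 to 4413 on the wild-type arrays. That sum rests mostly on *kuk*, named after its values were seen, with 3771 and 2735 on the *how* mutant arrays, against 3240 and 2694 on the wild-type arrays. The smallest p values in that list were those of *halo* (-0.84) and *ftz* (0.34). Of 13 markers of other germ layers 0 passed in limma and 2 had an unadjusted p under 0.05, *ush* (0.82) and *fkh* (0.42), with summed signals of 5672 to 6390 on the *how* mutant arrays, against 5442 to 6109 on the wild-type arrays. Whether embryo age plays a part in the falls of the late differentiation genes, or in the change of *lmd*, was not tested.

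*lmd* lies on 3R, the arm that carries *how*, with 123 annotated protein-coding genes between them. Of the 5 nearest protein-coding genes on either side of *lmd*, 2 were bright enough to test, and neither passed nor kept its groups apart. These were *CG17121* (-0.31) and *p53* (-0.04), 4 and 5 genes away on the same side. The genes nearer to *lmd* and those on its other side were too dim to test. *bap*, *zfh1* and *Poxm* lie on the same arm.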

How the data were processed

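The authors deposited 1 intensity value per probe set and array, made with MAS5 per the submitters' processing notes. The sources used here give neither its version nor its settings, and detection calls were not used. Trimmed by 2% at each end, the mean signal of every array came to 250.04. Arrays were grouped by title, and their number limits the precision.

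Signals were floored at their 5th percentile (3.38) and put on the log2 scale. Control probe sets (44) and those dimmer on average than the 40th percentile of mean log2 signal stayed out, leaving 8380 of 13966. The whole table was fitted in R 4.3.3 with limma 3.58.1, using lmFit and eBayes with a mean-variance trend. The steps were also run on data simulated from limma's own fitted variances, without array effects. That run checks the code and not these arrays. Names came from the platform annotation, updated by Entrez ID to RefSeq Release 6: of the gene probe sets 12443 had 1 symbol (12394 matched), 327 several and 1196 none. Where several probe sets share a gene, the brightest stands for it.

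All regulators are named. From each other list the text names up to 4 passing genes or, with none, the 2 with the smallest p, and partners and relatives separated by 2-fold between the nearest arrays, of which none was bright enough to test. The members and lists were chosen with earlier results of these data known. Nothing says that the arrays of a group came from separate parents, so p-values refer to the spread between these RNA pools. That spread was estimated partly from other probe sets, with 5.80 prior against 2 residual degrees of freedom. The alternatives were other scalings, filters, variance models, thresholds, a replicate block, the mean over probe sets and leaving out each array.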

Additional observations from a re-analysis of the deposited data

How the results depend on the processing

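Of the regulators only *lmd* passed in any alternative, and the count of 1 became 0 under quantile normalization, a robust fit, no trend and no filter, and was 0 to 1 without an array (0 without wild-type array 1 or either mutant array). The count of regulators whose groups did not overlap, 3, was 0 at a separation of at least 2-fold. It was 3 under quantile normalization and median centring, settings added after the data were seen. Among all probe sets, 255 passed as reported. The fit with the replicate block passed 825, the looser threshold of 0.1 passed 401 and the fit that ignores the mean-variance trend passed 95. Keeping dim probe sets left 0 in limma, with 1782 at an unadjusted p under 0.05. Leaving out 1 array left 87 to 153: dropping mutant array 1 gave 117, mutant array 2 gave 87, wild-type array 1 gave 153 and wild-type array 2 gave 140. A single remaining array was taken to be as variable as the pair in the other group, and the other causes were not tested. The sign of 6 regulators that did not pass turned when an array was left out, with log2 changes of -0.37 to 0.27 for *twi*, -0.19 to 0.0704 for *zfh1*, -0.22 to 0.0341 for *bap*, -0.14 to 0.35 for *Him*, -0.47 to 0.38 for *eya* and -0.37 to 0.29 for *Poxm*, and that of *l(1)sc* ran from -0.21 to 0.0140. *sna* and *bin* stayed below 0 in all 13 alternatives. *fog* kept its call in 4 of 13 alternatives.

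The labels share replicate numbers but name no shared batch, and the deviations of same-numbered arrays from their group means correlated with r = 0.183 across probe sets. With the replicate block *lmd* (limma adjusted p = 0.000175) and *fog* (0.00393) passed as before, and no other regulator did. *Six4* (0.0241), *jeb*, *blow*, *halo* and *ush* passed only in that fit or at a looser threshold. The block fit passed 825 of all probe sets, against 255 as reported. It fits an extra term to the same arrays, so its p-values rest more on the variances of other probe sets.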

Other observations

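Of the 6 other mesodermal regulators too dim to be tested, *slou*, a homeobox gene of muscle founder cells, was singled out after its values were seen. Its signal was 62.1 and 76.4 on the *how* mutant arrays, against 14.0 and 14.7 on the wild-type arrays, so the nearest arrays differed 4.22-fold. The wild-type signals lie under the 39.5 used to leave out dim probe sets. With no filter its log2 change was 2.26 ± 0.42 (SE, n = 2; limma adjusted p = 0.204), and no probe set passed in that fit.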
